A study of Mus musculus with 12 samples.

Results

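The Toll-like receptors followed here were Tlr1, Tlr2, Tlr3, Tlr4, Tlr5, Tlr6, Tlr7, Tlr8, Tlr9 and Tlr13, chosen by gene symbol, and each of the 10 was found on 1 row among the 55401 genes of both count tables. All 10 passed the filter on low counts in both comparisons. Toll-like receptors bind molecules shed by microbes or by damaged and dying cells. Tlr1, Tlr2, Tlr4, Tlr5 and Tlr6 act at the cell surface on lipopeptides, lipopolysaccharide and flagellin, whereas Tlr3, Tlr7, Tlr8, Tlr9 and Tlr13 act in endosomes on nucleic acids. Most of them signal through the adaptor Myd88 and some through Ticam1, which leads to NF-kB, MAP kinase and interferon regulatory factor activity and to the induction of cytokines. Macrophages, including those of tumours, are a main site of their expression.

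Bulk RNA-seq was performed on tumor-associated macrophages (TAMs) sorted from untreated, B16-F10 melanoma-bearing mice, with 3 samples in each of 4 groups. B16-F10 is a transplantable melanoma line of C57BL/6 origin, and it was implanted under the skin of mice of C57BL/6 background. The methods give the age of all mice as 5 weeks and name female mice, in wording that may cover all strains or the C57BL/6 mice alone. WT denotes AMPKfl/fl mice, whose Prkaa1 gene (AMPKα1) carries loxP sites but which are labelled without Cre, and AMPK-KO denotes AMPKfl/flLyz2cre/cre mice, with tumors taken on day 15 in both according to the methods. The genotype labels of AMPK-KO replicates 2 and 3 read Lyz3cre/cre and Lyz4cre/cre, although their titles give Lyz2. The other comparison set early-stage TAMs (day 8) against late-stage TAMs (day 15), both from mice labelled WT. Lyz2-Cre acts in macrophages, monocytes and neutrophils, so the deletion was not restricted to TAMs, and in sorted cells it need not be complete. The labels do not tie the samples to separate animals, so the p-values measure the spread between these samples, which may in part be technical. The 2 tables share no sample and were analysed apart.

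The libraries held between 71019494 and 84470374 counts, so counting error on the members was small, the lowest count of any member being 384. Prkaa1 had 4959, 4535 and 5165 counts in WT and 3467, 3285 and 3297 in AMPK-KO TAMs (log2 fold change -0.60, adjusted p = 2.3e-04), in the direction of the labels. Lyz2, whose coding sequence the Cre insertion interrupts, had 671 to 975 counts in the libraries labelled WT, 676 to 1088 in AMPK-KO and between 88212 and 249165 in the early-stage and late-stage libraries. For this gene the libraries labelled WT therefore resembled the AMPK-KO ones. Transcripts of the Y-linked Ddx3y, Eif2s3y, Kdm5d and Uty summed to 128 to 153 CPM (counts scaled to library size) in WT and AMPK-KO, 41.5 to 48.8 in early-stage and at most 0.05 in late-stage TAMs. Xist, made from the inactive X chromosome, had at most 158 counts in WT and AMPK-KO and 13568 or more in each early-stage and late-stage library. The early-stage libraries thus held transcripts of both kinds. Although the methods name female mice, Y-linked transcripts were present in WT, AMPK-KO and early-stage TAMs, and sex composition and tumor stage cannot be told apart. Macrophage genes were abundant in all libraries (10 genes summing to 10691 CPM or more, Adgre1 at 810.0 CPM or more). Ly6g of neutrophils was at 0 counts in 11 of 12 libraries. The methods define TAMs by the Adgre1 protein, CD11b (the product of Itgam) and the absence of Ly6G and Ly6C, among other markers. Adgre1, Itgam, Ly6g and Ly6c2, the last in the monocyte list below, therefore reflect the sort and are no separate measure of purity. Further neutrophil genes are given at the end. Melanocyte genes, markers of the implanted tumor, were also present, at 998 to 999 CPM in WT, 676 to 716 in AMPK-KO, 1663 to 1807 in early-stage and 767 to 1203 in late-stage TAMs.

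The promoter sequences of the receptors that changed most in either comparison (Tlr9, Tlr5 and Tlr6), and of Tlr1, the neighbour of Tlr6, are shown so that they can be read beside the values below. They are the bases before the RefSeq transcription start (GRCm38.p6, for Tlr1 and Tlr6 the listed start nearest to that of GENCODE M21), up to 250, cut where GENCODE M21 starts the gene further upstream, and written 5′ to 3′ on the gene's strand. Capitals mark matches to any of 5 motifs that were searched on both strands in the 250 bases before the start.
Tlr9, chr9:106222348-106222597, plus strand: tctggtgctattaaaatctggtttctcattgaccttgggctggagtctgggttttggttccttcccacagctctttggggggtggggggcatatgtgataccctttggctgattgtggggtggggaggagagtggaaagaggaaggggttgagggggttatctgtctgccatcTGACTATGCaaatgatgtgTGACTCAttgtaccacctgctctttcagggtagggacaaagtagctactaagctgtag
Tlr5, chr1:182954538-182954787, plus strand: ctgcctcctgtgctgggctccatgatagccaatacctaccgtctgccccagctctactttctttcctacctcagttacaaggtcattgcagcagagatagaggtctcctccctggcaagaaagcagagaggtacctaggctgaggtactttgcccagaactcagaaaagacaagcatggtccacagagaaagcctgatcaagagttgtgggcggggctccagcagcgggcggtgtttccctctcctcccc
Tlr6, chr5:64960098-64960298, minus strand: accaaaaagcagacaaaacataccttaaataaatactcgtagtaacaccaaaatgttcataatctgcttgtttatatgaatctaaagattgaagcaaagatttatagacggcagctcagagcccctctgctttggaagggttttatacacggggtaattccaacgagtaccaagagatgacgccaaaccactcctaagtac
Tlr1, chr5:64933564-64933808, minus strand: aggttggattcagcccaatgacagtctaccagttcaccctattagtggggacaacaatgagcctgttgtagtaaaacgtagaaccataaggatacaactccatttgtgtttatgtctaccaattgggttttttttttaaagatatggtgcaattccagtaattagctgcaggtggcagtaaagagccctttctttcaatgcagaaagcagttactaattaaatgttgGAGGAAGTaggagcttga

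The Tlr9 promoter held an AP-1 site (TGANTCA) at positions -58 to -52 and an NRF2 site core (TGACNNNGC) at -77 to -69, where -1 is the base before the start. Of 32851 RefSeq promoters of the same length, 6.75% held the AP-1 letters and 10.2% the NRF2 letters. Tlr1 held a PU.1 site core (GAGGAAGT, 2.44% of promoters) at -23 to -16, and Tlr8 a gamma-activated site core (TTCNNNGAA, 7.02%). The interferon-stimulated response element core (2.98%) was in none of the 8 members with a promoter in the RefSeq table, which did not list Tlr4 or Tlr7. Tlr2, Tlr3, Tlr5, Tlr6 and Tlr13 held none of the 5 before the RefSeq start. For Tlr3 that start lies 700 bases inside the gene of GENCODE M21, so the stretch searched was not upstream of the M21 start. For Tlr2 and Tlr13 it lies 159 and 71 bases inside. Of the members without a match, Tlr5, Tlr6 and Tlr13 transcripts were called between stages and those of Tlr2 and Tlr3 were not. In AMPK-KO against WT TAMs, Tlr1 and Tlr9, with a match, and Tlr2 and Tlr5, without, were called. Tlr8, with a match, was called in neither comparison. A match here describes letters in the sequence, and binding was not measured.

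Levels of different receptors were compared as CPM per kilobase of exon. Tlr2 and Tlr13 were the most abundant members in every group, and Tlr3, Tlr5 and Tlr6 the least. In WT TAMs Tlr2 stood at 58.5 ± 1.77 CPM per kb (SD, n = 3) and Tlr13, the sensor of bacterial ribosomal RNA, at 49.0 ± 1.28, above all the others. Below them Tlr1, Tlr7, Tlr8, Tlr9 and Tlr4 followed from 27.8 ± 1.66 down to 17.7 ± 1.59, and no neighbours in that stretch of the order were separated, since their 3 samples overlapped. Tlr6, Tlr5 and Tlr3 followed at 6.14 ± 0.21, 5.28 ± 0.73 and 4.27 ± 0.35, where Tlr6 overlapped with Tlr5 and Tlr5 did not overlap with Tlr3. The order in AMPK-KO TAMs differed mainly for Tlr9, which moved from rank 6 to rank 3, at 37.5 ± 2.98 CPM per kb, overlapping with Tlr1 at 33.3 ± 0.94. Tlr3 and Tlr5, at 5.10 ± 1.01 and 4.11 ± 0.20, overlapped at the bottom of the AMPK-KO order.

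**Figure D1:**
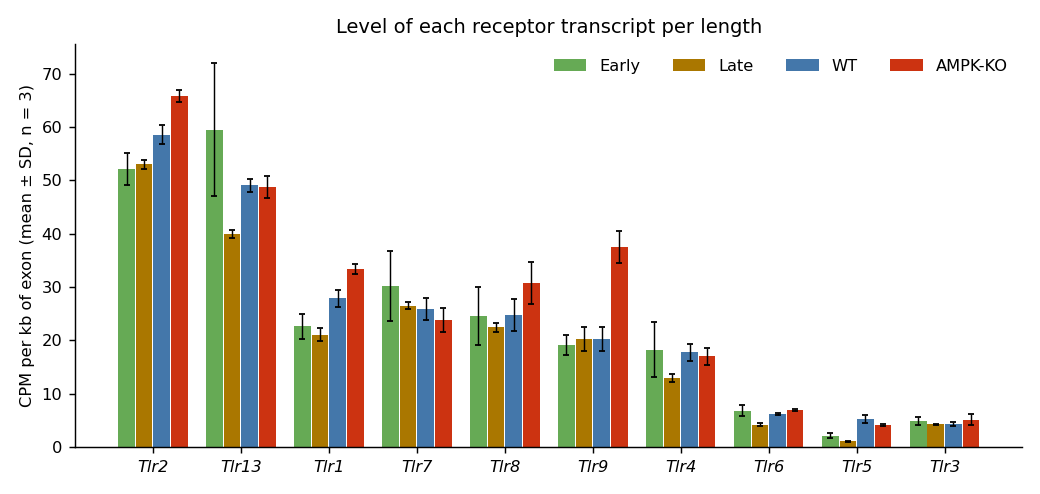
Mean level of each receptor transcript in CPM per kilobase of exon (y axis) for early-stage (Early), late-stage (Late), WT and AMPK-KO TAMs, with bars starting at 0 and error bars of 1 SD over 3 samples, ordered by the WT level. Tlr2 and Tlr13 lead in every group, Tlr9 is at 20.2 in WT and 37.5 in AMPK-KO, and Tlr5 is at 2.12 in Early and 1.05 in Late.

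In early-stage TAMs Tlr13 (59.5 ± 12.5 CPM per kb) ranked above Tlr2 (52.1 ± 3.03), and their samples overlapped. In late-stage TAMs the order was inverted and the samples did not overlap, with Tlr2 at 53.0 ± 0.78 and Tlr13 at 39.9 ± 0.71. Tlr7 was next in both, at 30.1 ± 6.54 in early-stage TAMs, overlapping with Tlr8 below it, and at 26.5 ± 0.70 in late-stage TAMs, apart from it. Tlr5, the flagellin receptor, ranked last in both, at 2.12 ± 0.42 and 1.05 ± 0.04 CPM per kb. The tables were scaled separately and come from other mice, so the Tlr5 level of 5.28 in WT on day 15 is set beside the 1.05 of late-stage TAMs on the same day without a test.

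TAMs labelled AMPK-KO had higher Tlr9, Tlr1 and Tlr2 transcripts and lower Tlr5 transcripts than those labelled WT. There was no called difference for Tlr3, Tlr4, Tlr6, Tlr7, Tlr8 and Tlr13. Of the 10 members, 3 rose and 1 fell at an adjusted p under 0.05, and the groups did not overlap for 5, Tlr6 included. Among all 17532 genes tested, 11.3% were called higher and 9.78% lower (21.1% in either direction), and 37.2% did not overlap between the groups. The median log2 fold change of the members was 0.17, beside -0.0037 over all genes. No member was both called and changed by more than 1 on the log2 scale, as 3.34% of genes were. With so few members these counts describe the receptors and were not tested as a set. In bulk samples fewer cells of a type and less RNA per cell cannot be told apart.

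**Figure D2:**
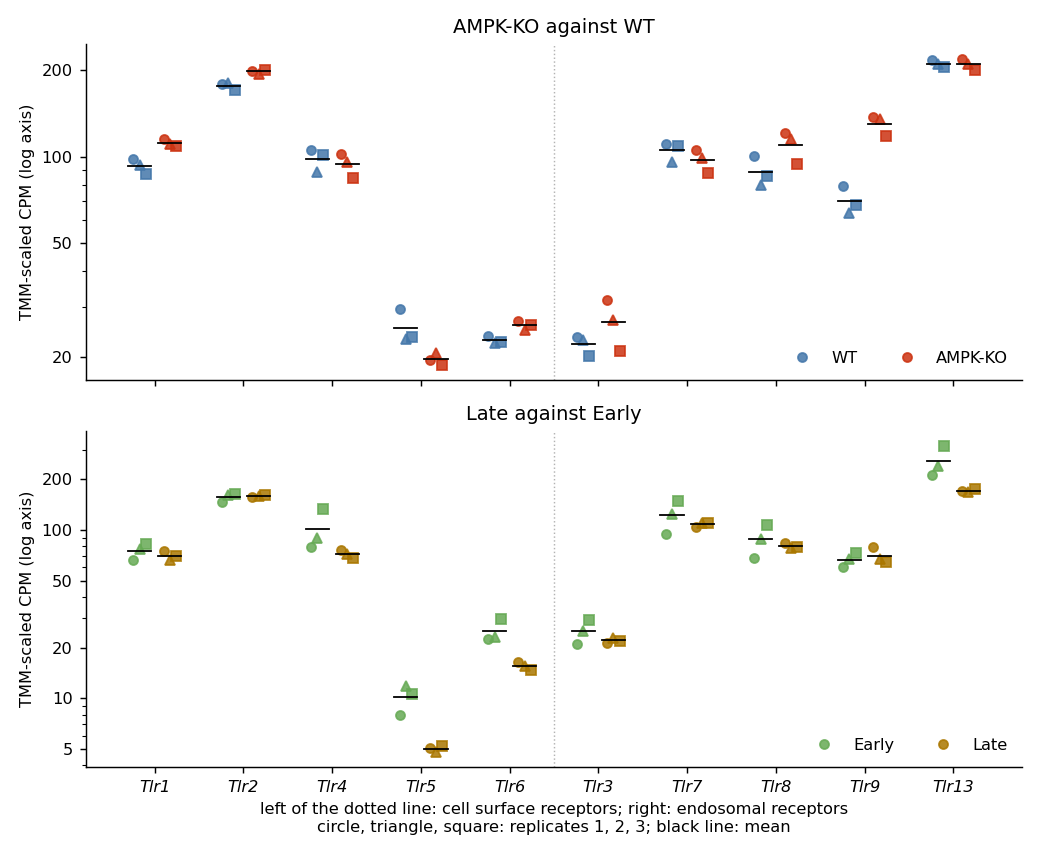
TMM-scaled CPM (log axis) of each receptor in each of the 12 samples, for AMPK-KO and WT above and for Late and Early below, with 1 symbol per replicate and the group mean as a line. The 3 AMPK-KO values of Tlr9 (118 to 137) lie above the 3 WT values (63.6 to 79.1), and the 3 Late values of Tlr5, Tlr6 and Tlr13 lie below their Early values.

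Tlr9, the endosomal receptor for unmethylated CpG DNA (ENSMUSG00000045322.10, protein coding, chr9:106222598-106226883, plus strand), stood at 79.1, 63.6 and 68.0 CPM in WT and at 137, 136 and 118 in AMPK-KO TAMs. Every AMPK-KO sample was well above every WT sample, and Tlr9 changed more than any other member. The mean rose by 85.6%, from 70.2 ± 8.01 to 130.4 ± 10.4 CPM (SD, n = 3), which on the log2 scale was 0.89 with an SE of 0.087 (adjusted p = 4.9e-05). Without any 1 library the log2 fold change lay between 0.83 and 0.98 and the adjusted p was at most 0.0013. B cells and plasmacytoid dendritic cells are also known to express Tlr9, so their markers are given here. The summed level of 8 B cell genes was 64.9 to 70.98 CPM in WT and 54.4 to 56.4 in AMPK-KO TAMs. Of these genes 5 were called lower and 1 higher, and their median log2 fold change was -2.68, a larger fall than that of the sum. For 8 plasmacytoid dendritic cell genes it was 72.9 to 77.1 and 65.4 to 69.6 CPM (2 of 7 tested called in each direction), and Siglech had no more than 49 counts in any library. Other marker lists rose in AMPK-KO TAMs, as given below, among them that of conventional type 1 dendritic cells (7 of 8 genes called higher, 0 lower). The part of any of these cells in the Tlr9 difference was not tested.

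The other endosomal receptors moved less. Tlr8 (ENSMUSG00000040522.5, chrX:167242696-167264329, minus strand), the close relative of Tlr7 that in mice responds poorly to the ligands of its human counterpart, was at 101, 79.7 and 85.4 CPM in WT and 121, 115 and 94.2 in AMPK-KO TAMs. The lowest AMPK-KO sample fell among the WT values, and the difference was not called (log2 fold change 0.31, SE 0.104, adjusted p = 0.059). It passed with DESeq2 (adjusted p = 0.011), with at least 10 counts in every library (0.044), without WT replicate 1 (0.012) and without AMPK-KO replicate 3 (0.016). Tlr3, the receptor for double-stranded RNA (ENSMUSG00000031639.12, chr8:45395665-45411080, minus strand), was at 23.6, 23.0 and 20.2 CPM in WT and 31.6, 27.0 and 21.1 in AMPK-KO TAMs. Its AMPK-KO samples were spread widely and overlapped with WT (log2 fold change 0.26, adjusted p = 0.22), and it was called only without AMPK-KO replicate 3 (0.40, adjusted p = 0.032). The antisense gene Gm45542 overlaps 381 exonic bases of Tlr3, and since the strand setting of the counting is not given, reads of both cannot be told apart there.

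Tlr7, the receptor for single-stranded RNA (ENSMUSG00000044583.13, chrX:167304929-167330558, minus strand), was at 111, 95.7 and 109 CPM in WT and 105, 99.2 and 87.5 in AMPK-KO TAMs (log2 fold change -0.11, SE 0.080, adjusted p = 0.37). Tlr13 (ENSMUSG00000033777.4, chrX:106143204-106160493, plus strand) was at 217, 210.4 and 206 CPM in WT and 219, 209.9 and 201 in AMPK-KO TAMs (-0.0074, SE 0.049, adjusted p = 0.94), and its sign turned positive without WT replicate 1 or AMPK-KO replicate 3. Both overlapped between the groups. Since the 3 receptors Tlr7, Tlr8 and Tlr9 share their chaperone and adaptor, their ratios within each sample, which no scaling can move, were also compared, a choice made after seeing the data. Counts of Tlr9 per count of Tlr7 were 0.67 ± 0.05 in WT and 1.34 ± 0.04 in AMPK-KO TAMs, and the samples did not overlap. Tlr8 per Tlr7 was 0.84 ± 0.06 and 1.13 ± 0.05, again without overlap, whereas Tlr13 per Tlr7 was 2.01 ± 0.16 and 2.16 ± 0.12 with overlap. The two-sided exact permutation test gave p = 0.1 for the ratios of Tlr9 and of Tlr8, the smallest that 3 samples against 3 allow (0.2 after adjustment over 12 ratios), and p = 0.3 for that of Tlr13 (0.36 adjusted).

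Of the surface receptors, Tlr1 and Tlr2 rose by small amounts. Tlr1 (ENSMUSG00000044827.10, chr5:64924679-64933563, minus strand), which pairs with Tlr2 on triacylated lipopeptides, was at 98.4, 93.5 and 87.4 CPM in WT and 115, 111 and 109 in AMPK-KO TAMs. All AMPK-KO samples were above all WT samples (log2 fold change 0.26, SE 0.058, adjusted p = 0.0098), and the call was lost without WT replicate 3 (0.21, adjusted p = 0.063). Tlr2 itself (ENSMUSG00000027995.10, chr3:83836272-83841767, minus strand) was at 179, 180.1 and 170.2 CPM in WT and 199, 195 and 201 in AMPK-KO TAMs. It did not overlap either, and rose by 12.4% (log2 fold change 0.17, SE 0.047, adjusted p = 0.027). The call was lost on leaving out any 1 of 4 libraries, namely WT replicate 3 (0.14, adjusted p = 0.14) and AMPK-KO replicates 1 (adjusted p = 0.086), 2 (0.072) and 3 (0.072).

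Tlr6 (ENSMUSG00000051498.7), which pairs with Tlr2 on diacylated lipopeptides, was at 23.8, 22.4 and 22.5 CPM in WT and 26.7, 24.98 and 25.9 in AMPK-KO TAMs. The groups did not overlap, but the difference was not called (log2 fold change 0.18, SE 0.074, adjusted p = 0.13). Tlr1 and Tlr6 lie next to each other on chromosome 5 and are alike in sequence. Of the 50-base stretches of their transcripts, 13.6% of those of Tlr1 and 12.3% of those of Tlr6 also occur in the other, so that reads from these stretches could have been lost or assigned to either. Per count of Tlr2 in the same sample, Tlr1 was at 0.53 ± 0.02 in WT and 0.56 ± 0.02 in AMPK-KO TAMs and Tlr6 at 0.13 ± 0.01 and 0.13 ± 0.003, and both ratios overlapped between the groups (two-sided exact permutation p = 0.2 and 0.8, adjusted 0.3 and 0.8). The ratio of Tlr6 to Tlr1 was 0.25 ± 0.01 and 0.23 ± 0.01, without overlap (exact p = 0.1, adjusted 0.2).

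Tlr5 (ENSMUSG00000079164.8, chr1:182954788-182976044, plus strand) was the only member that fell, from 29.3, 23.1 and 23.5 CPM in WT to 19.6, 20.7 and 18.8 in AMPK-KO TAMs. All AMPK-KO samples were below all WT samples (log2 fold change -0.36, SE 0.104, adjusted p = 0.033). WT replicate 1 was the highest, and without it the log2 fold change was -0.24 (adjusted p = 0.073). The call was also lost without WT replicate 3 (adjusted p = 0.054), without AMPK-KO replicate 1 (0.094), 2 (0.072) or 3 (0.096), and with no filter on low counts (0.061). Tlr4, the receptor for lipopolysaccharide (ENSMUSG00000039005.13, chr4:66827584-66930284, plus strand), was at 106, 88.6 and 101 CPM in WT and 102, 95.8 and 84.5 in AMPK-KO TAMs. Its groups overlapped (log2 fold change -0.063, SE 0.084, adjusted p = 0.66), and without AMPK-KO replicate 3 the value was 0.0084.

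**Figure D3:**
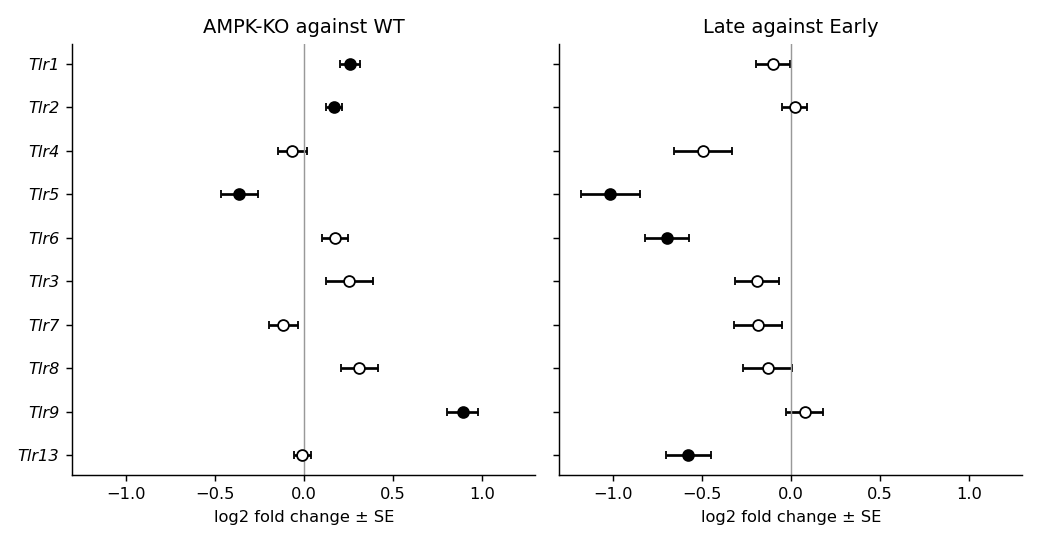
Log2 fold change of each receptor (x axis) with its standard error, for AMPK-KO against WT on the left and Late against Early on the right. Filled points had an adjusted p under 0.05 (edgeR), which were Tlr1, Tlr2, Tlr5 and Tlr9 on the left and Tlr5, Tlr6 and Tlr13 on the right.

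Markers of other cells also differed between WT and AMPK-KO TAMs. The summed level of 6 monocyte genes was 585 to 620.1 CPM in WT and 946 to 969 in AMPK-KO TAMs (4 called higher, none lower), that of 8 genes of conventional type 1 dendritic cells (cDC1) 122 to 133 and 189.6 to 199 (7 higher, none lower), and that of 7 NK cell genes 38.7 to 43.9 and 93.5 to 97.9 (7 higher). Among the defining cDC1 genes, Clec9a rose by 1.38 and Xcr1 by 1.02 on the log2 scale. The 10 macrophage genes summed to 13940 to 15156 CPM in WT and 13578 to 13793 in AMPK-KO TAMs, with 2 called in each direction. The part of these cells in the receptor differences was not tested. Tlr11 and Tlr12, the receptors for profilin of Toxoplasma, are outside the 10 members and belong to the cDC1 list. Tlr11 was at 2.48 ± 1.04 CPM in WT TAMs and 7.30 ± 0.35 in AMPK-KO (log2 fold change 1.56, adjusted p = 0.0015), and Tlr12 at 8.08 ± 0.83 and 17.5 ± 1.63 (1.12, adjusted p = 7.4e-05).

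Between day 8 and day 15, Tlr5, Tlr6 and Tlr13 transcripts fell and no member rose. Tlr1, Tlr2, Tlr3, Tlr4, Tlr7, Tlr8 and Tlr9 were not called. Thus 3 of 10 members were called lower and 0 higher, beside 4.88% lower and 4.31% higher (9.18% in either direction) among the 17630 genes tested, and 4 members did not overlap between the groups, beside 31.2% of genes. Tlr9 and Tlr2 had positive log2 fold changes of 0.079 and 0.022, and no member passed in that direction at an unadjusted p under 0.05 either. DESeq2 called 0 higher and 4 lower members. The members' median log2 fold change was -0.19, beside 0.0027 over all genes. Of the members, 1 (Tlr5) was called with a change of more than 1 on the log2 scale, beside 1.87% of genes.

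Tlr5 was at 7.93, 11.9 and 10.6 CPM in early-stage and 5.08, 4.80 and 5.19 in late-stage TAMs. The late-stage samples were close together and all below the early-stage ones. The fall of 50.5% (log2 fold change -1.01, SE 0.165, adjusted p = 0.0049) was called without any 1 library, between -1.16 and -0.89 on the log2 scale, with an adjusted p of at most 0.036. Tlr6 was at 22.5, 23.3 and 29.6 CPM in early-stage and 16.4, 15.5 and 14.7 in late-stage TAMs. The groups did not overlap and the means were 25.1 ± 3.87 and 15.5 ± 0.83, a fall of 0.69 on the log2 scale (SE 0.125, adjusted p = 0.0082) and a call lost without late-stage replicate 3 (-0.66, adjusted p = 0.055).

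The partners of Tlr6 did not fall with it. Tlr2 was at 147, 162 and 163 CPM in early-stage and 158, 159 and 162 in late-stage TAMs (log2 fold change 0.022, SE 0.070, adjusted p = 0.89), and Tlr1 was at 66.8, 77.2 and 82.7 and at 74.7, 66.9 and 70.0 (-0.10, SE 0.093, adjusted p = 0.57). Both overlapped between the groups, and the sign of Tlr2 turned negative without early-stage replicate 1 (-0.023). Per count of Tlr2 in the same sample, Tlr6 was at 0.16 ± 0.02 in early-stage and 0.10 ± 0.01 in late-stage TAMs, and per count of Tlr1 at 0.33 ± 0.03 and 0.22 ± 0.01. Neither ratio overlapped between the groups (two-sided exact permutation p = 0.1 for each, the smallest possible, adjusted 0.2), while Tlr1 per Tlr2 was 0.48 ± 0.03 and 0.44 ± 0.03 with overlap (exact p = 0.2, adjusted 0.3).

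Tlr13 was at 212, 239.9 and 316 CPM in early-stage and 171, 169 and 175 in late-stage TAMs. Every late-stage sample was below every early-stage sample, and the early-stage samples were far apart (log2 fold change -0.58, SE 0.127, adjusted p = 0.022). The call was lost with no filter on low counts (adjusted p = 0.070), without early-stage replicate 2 (0.068) and without late-stage replicate 1 (0.092), 2 (0.095) or 3 (0.085), and without early-stage replicate 3 the log2 fold change was -0.40. Per count of Tlr7, Tlr13 was at 2.09 ± 0.16 and 1.59 ± 0.05 without overlap (two-sided exact permutation p = 0.1, adjusted 0.2). Tlr4 was at 79.9, 89.6 and 134 CPM in early-stage and 75.9, 71.8 and 67.8 in late-stage TAMs. The groups did not overlap, early-stage replicate 3 was far above the other samples, and the difference was not called (log2 fold change -0.49, SE 0.164, adjusted p = 0.096). It passed with DESeq2 (0.013) and without early-stage replicate 1 (-0.63, adjusted p = 0.021), and without early-stage replicate 3 it was -0.24.

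The nucleic acid receptors other than Tlr13 overlapped between the stages. Tlr7 was at 95.3, 125 and 148 CPM in early-stage and 105, 109.6 and 110.1 in late-stage TAMs (log2 fold change -0.19, SE 0.135, adjusted p = 0.45), and was called only without early-stage replicate 1 (-0.34, adjusted p = 0.025). Tlr8 was at 68.5, 88.0 and 108 and at 84.1, 78.6 and 78.9 CPM (-0.13, SE 0.139, adjusted p = 0.62), and without early-stage replicate 3 its sign turned (0.040). Tlr3 was at 21.1, 25.3 and 29.1 and at 21.5, 22.7 and 22.0 CPM (-0.19, SE 0.123, adjusted p = 0.38). Tlr9, the member that differed most between WT and AMPK-KO TAMs, was at 60.0, 67.1 and 72.9 CPM in early-stage and 79.4, 67.6 and 64.2 in late-stage TAMs (0.079, SE 0.104, adjusted p = 0.70). Late-stage replicate 1 was the highest of these, and without it the Tlr9 value was -0.015. Relative to Tlr7 in the same sample, neither Tlr9 (0.55 ± 0.07 and 0.65 ± 0.09, exact permutation p = 0.3, adjusted 0.36) nor Tlr8 (0.72 ± 0.01 and 0.74 ± 0.05, exact permutation p = 0.6, adjusted 0.65) was separated by stage.

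The early-stage libraries differed from each other in the same order for nearly all members, a pattern examined after seeing the data. All 10 were lowest in early-stage replicate 1 and 9 of 10 were highest in replicate 3, with Tlr5 highest in replicate 2, whereas 36.8% of all genes tested were lowest in replicate 1 and 37.3% highest in replicate 3. A shared order was also seen in the other table, where WT replicate 1 was highest for 9 members (36.3% of genes), AMPK-KO replicate 1 highest for 8 (35.1%) and AMPK-KO replicate 3 lowest for 8 (36.5%). The members summed to 781, 909 and 1094 CPM in the 3 early-stage libraries and to 791, 766 and 770.0 in the late-stage ones. The macrophage marker sum had the opposite order, at 12741, 11639 and 10691 CPM in early-stage TAMs and 13176 to 13282 in late-stage TAMs. Early-stage replicate 3 also stood apart in a principal component analysis, at -28.8 on the second component against 20.04 and 25.2 for the other early-stage libraries. The coefficient of variation within the early-stage group was 5.82% for Tlr2 and 28.4% for Tlr4, beside a median of 14.4% over all genes tested. What sets these libraries apart was not tested. Without replicate 1, 5 members were called lower (Tlr4 and Tlr7 added), and without replicate 3 the calls of Tlr5, Tlr6 and Tlr13 held.

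**Figure D4:**
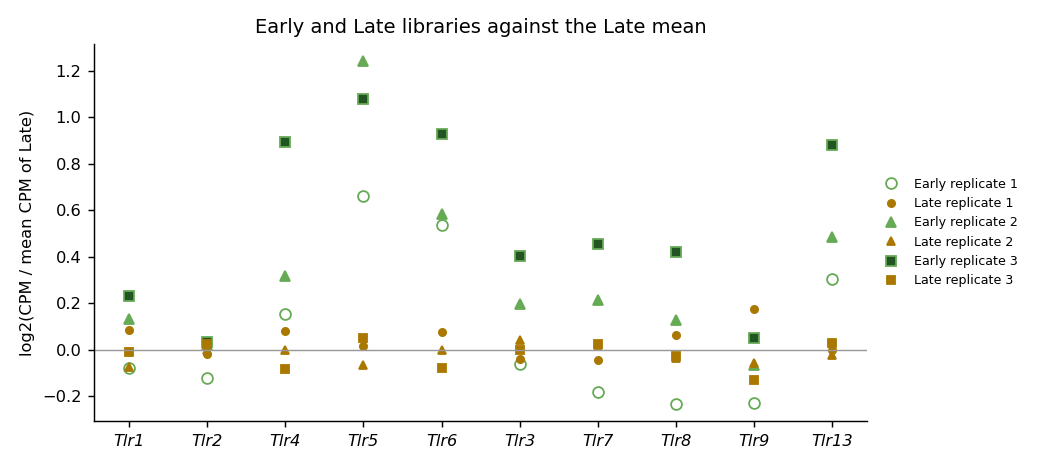
CPM of each receptor in each early-stage (Early) and late-stage (Late) library as log2 of its ratio to the mean of the 3 Late libraries (y axis), with 1 symbol per replicate. Early replicate 1 is the lowest Early library for all 10 members, and Early replicate 3 the highest for all but Tlr5.

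Tlr7, Tlr8 and Tlr13 are on the X chromosome, and Y-linked transcripts differed between the stages. The 552 X-linked genes tested had a median log2 fold change of -0.060 and 6.52% were called, beside 0.0051 and 9.25% over 17012 autosomal genes. These receptors had values of -0.19, -0.13 and -0.58, so that Tlr13 lay below the lower quartile of X-linked genes (-0.26) and the others did not. Tlr5 and Tlr6, the other members that fell, are autosomal. The part of sex composition in any of these differences was not tested, and it cannot be told apart from stage. Xist itself had a log2 fold change of 0.71 between the stages (adjusted p = 0.086).

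Markers of other cells moved with stage as well. The monocyte genes summed to 696 to 717 CPM in early-stage and 330.3 to 372 in late-stage TAMs (4 of 6 called lower, none higher), and the fibroblast genes to 801 to 878 and 393 to 555 (3 of 6 lower). The cDC1 genes summed to 169.7 to 189 and 322 to 332 CPM (3 of 8 higher, 1 lower), but their defining genes Clec9a and Xcr1 had log2 fold changes of -0.36 and 0.28 and were not called. B cell genes summed to 81.5 to 94.9 and 104 to 136.5 CPM (3 of 8 higher, none lower), without a called difference in Tlr9. Outside the members, Tlr11 fell by 1.16 on the log2 scale, with means of 4.47 ± 0.80 and 2.00 ± 0.31 CPM (adjusted p = 0.0097), a call lost without early-stage replicate 2 or late-stage replicate 3 (adjusted p of at most 0.058), and Tlr12 rose from 9.29 ± 1.07 to 16.7 ± 1.47 (0.85, adjusted p = 0.0032). The part of these cells in the receptor differences was not tested.

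The proteins that present ligands to the receptors, carry them to endosomes and relay their signal were followed in 8 lists with 123 genes tested. In AMPK-KO against WT TAMs, 55 of them rose and 19 fell, so that 60.2% were called, beside 21.1% of all genes. In late-stage against early-stage TAMs, 5 rose and 21 fell (21.1%, beside 9.18% of all genes), and between 11 and 17 in all were called without early-stage replicate 2 or any 1 late-stage replicate. By list, the share called with stage was near or below that of all genes for some. These were the adaptors and proximal kinases (5.26%), NF-kB, MAP kinase and IRF genes (4.76%), cytosolic sensors (9.09%) and chaperones and transport (11.1%). In the other lists it was 21.1% to 44.4%. The lists were chosen with earlier results of these data known, so the counts are a description.

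Among surface co-receptors, 4 of 8 tested rose and 2 fell in AMPK-KO TAMs. Itgam and Itgb2, the chains of complement receptor CR3, rose by 0.55 and 0.36 on the log2 scale (adjusted p = 3.4e-05 and 6.8e-05), and Cd180, a Toll-like receptor homologue, by 0.26 (adjusted p = 0.0056). Itgam encodes CD11b, on which the cells were sorted. Of 6 tested genes of the sorting gate, 4 were called higher in AMPK-KO TAMs and 0 lower, beside 11.3% and 9.78% of all genes. The part of the sort in these differences was not tested. Cd36, a scavenger receptor that assists Tlr2 with Tlr6, fell by 0.64 (from 469.96 ± 4.52 to 302 ± 9.60 CPM, adjusted p = 4.3e-06), and Lbp, which carries lipopolysaccharide, fell by 1.61 (adjusted p = 1.3e-04). In late-stage TAMs 4 of 9 fell and 0 rose. Cd14 and Ly96, which hand lipopolysaccharide to Tlr4 and complete its binding site, fell by 0.70 and 0.64, Ly96 from 16.9 ± 1.69 to 10.8 ± 0.60 CPM (adjusted p = 0.0082 and 0.0083). Cd36 fell by 0.72 (adjusted p = 8.8e-04). The call of Cd14 was lost without early-stage replicate 2 or late-stage replicate 2 or 3, and that of Ly96 without early-stage replicate 2 or late-stage replicate 3, at adjusted p of at most 0.054 and 0.052.

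Of the chaperones and transport proteins, Unc93b1, which escorts the endosomal receptors out of the endoplasmic reticulum, rose in both comparisons. It was at 856 ± 16.04 CPM in WT TAMs and 1088 ± 23.5 in AMPK-KO (log2 fold change 0.35, adjusted p = 1.3e-04), and at 670.2 ± 79.1 and 911 ± 20.6 CPM in early-stage and late-stage TAMs (0.44, adjusted p = 0.014). The stage call was lost without early-stage replicate 2 or any late-stage replicate (adjusted p of at most 0.065). Slc15a3, an endosomal transporter, also rose in AMPK-KO TAMs (0.36, adjusted p = 1.3e-04). By contrast Hsp90b1, the folding chaperone gp96 on which most Toll-like receptors depend, fell by 0.31 (adjusted p = 2.9e-04), as did Lrrc59 by 0.25 and Arl8b, which moves lysosomes along microtubules, by 0.25 (adjusted p = 0.0022 and 0.010, the latter not called without AMPK-KO replicate 2, adjusted p = 0.057). In all 2 of 9 rose and 3 fell in AMPK-KO TAMs, and 1 of 9 rose and 0 fell with stage.

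Endosomal proteases cut Tlr9 and related receptors into their active form, and nucleases in the same compartment digest their ligands. In AMPK-KO TAMs 3 of 12 rose and 5 fell. Dnase1l3, a secreted nuclease that acts on DNA in vesicles and chromatin, was at 17.2 ± 2.13 and 51.8 ± 3.29 CPM (log2 fold change 1.59, adjusted p = 2.1e-06). The exonucleases Pld4 and Pld3 moved in opposite directions, by 0.40 (adjusted p = 1.1e-04) and -0.50 (adjusted p = 1.9e-05). So did the cathepsins, with Ctss at 0.44 (adjusted p = 3.6e-04), Ctsb at -0.39 (adjusted p = 1.2e-05) and Ctsl at -0.53 (adjusted p = 6.7e-05). In late-stage TAMs 1 of 12 rose and 3 fell. Pld4 rose by 0.42 (adjusted p = 0.0075, 0.054 without early-stage replicate 2), whereas Ctsl fell by 0.81 (adjusted p = 4.7e-04), Ctsk by 1.03 (adjusted p = 0.0029) and Ctss by 0.26 (adjusted p = 0.031), the last of these not without early-stage replicate 2 or any late-stage replicate (adjusted p of at most 0.16).

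Adaptors and proximal kinases rose in 6 of 19 cases in AMPK-KO TAMs and fell in 0. Myd88, the common adaptor, was at 127 ± 3.07 CPM in WT TAMs and 169.8 ± 4.15 in AMPK-KO (log2 fold change 0.42, adjusted p = 1.4e-04). Pik3ap1, an adaptor linking the receptors to PI3 kinase, rose by 0.39 (adjusted p = 2.9e-04) and Peli1, a ubiquitin ligase of the pathway, by 0.46 (adjusted p = 5.7e-04). With stage, 0 of 19 rose and 1 fell, which was Ticam2, the bridging adaptor of Tlr4 (log2 fold change -0.33, adjusted p = 0.026). That call was lost without early-stage replicate 2 or any late-stage replicate (adjusted p of at most 0.12).

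Of the NF-kB, MAP kinase and interferon regulatory factor genes, 11 of 21 rose and 2 fell in AMPK-KO TAMs. Nfkb1 (0.40, adjusted p = 8.2e-05), Irf7 (0.38, adjusted p = 1.8e-04) and Irf5 (0.36, adjusted p = 3.5e-04), transcription factors downstream of the receptors, were the higher genes with the smallest adjusted p. Jun, a subunit of AP-1, fell by 0.37 (adjusted p = 9.1e-05), and the kinase gene Map2k3 fell by 0.23 (adjusted p = 0.014, 0.078 without AMPK-KO replicate 2). With stage, 1 of 21 was called, Nfkb1 at 0.26 (adjusted p = 0.047), and this call was lost without any library except early-stage replicate 1 (adjusted p of at most 0.19).

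Negative regulators of the pathway rose for 9 of 19 and fell for 2 in AMPK-KO TAMs. Socs1, a suppressor of cytokine and receptor signalling, was at 14.9 ± 1.79 CPM in WT TAMs and 42.1 ± 2.46 in AMPK-KO (log2 fold change 1.498, adjusted p = 3.05e-06). Trafd1 and the NF-kB inhibitor Nfkbie rose by 0.48 and 0.67 (adjusted p = 5.1e-05 and 7.0e-05). The inhibitor Nfkbia and the repressor Atf3 fell by 0.32 and 0.30 (adjusted p = 0.0021 and 0.0010). In late-stage TAMs 1 of 19 rose and 3 fell. Tnip3, which restrains NF-kB, fell by 0.94 (adjusted p = 0.0012), Nfkbie by 0.52 (adjusted p = 0.0071) and Irak3, an inhibitory kinase homologue, by 0.32 (adjusted p = 0.042), while Tnip1 rose by 0.32 (adjusted p = 0.023). The calls of Nfkbie, Irak3 and Tnip1 were each lost without early-stage replicate 2, late-stage replicate 2 or late-stage replicate 3, and those of Irak3 and Tnip1 also without late-stage replicate 1 (adjusted p of at most 0.054, 0.18 and 0.12), and that of Irak3 without early-stage replicate 3.

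Genes that Toll-like receptor signalling can induce rose for 12 of 24 and fell for 5 in AMPK-KO TAMs. The groups did not overlap for 17 of the 24, beside 37.2% of all genes tested. Il1b, an inflammatory cytokine, was at 288 ± 8.70 CPM in WT TAMs and 595 ± 14.8 in AMPK-KO (log2 fold change 1.05, adjusted p = 2.6e-07), Cxcl9, a chemokine for T cells, at 165 ± 7.78 and 339 ± 13.4 (1.04, adjusted p = 7.3e-07), and Acod1, which makes itaconate, at 75.4 ± 2.29 and 145 ± 1.90 (0.94, adjusted p = 8.3e-07). The chemokines Cxcl1, Cxcl2 and Ccl3 fell by 1.34, 0.84 and 0.78 (adjusted p = 5.3e-06, 2.1e-04 and 6.6e-05). In late-stage TAMs 1 of 23 rose and 9 fell. Saa3, an acute-phase protein, was at 127 ± 39.7 and 4.62 ± 0.66 CPM (-4.78, adjusted p = 6.3e-06), Acod1 at 113 ± 4.62 and 46.1 ± 1.95 (-1.296, adjusted p = 1.3e-05) and Nos2, the inducible nitric oxide synthase, at 147 ± 12.9 and 65.8 ± 1.58 (-1.16, adjusted p = 4.2e-05). Cxcl9 was the gene that rose (0.32, adjusted p = 0.032), and it was not called without early-stage replicate 2 or any late-stage replicate (adjusted p of at most 0.14).

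**Figure D5:**
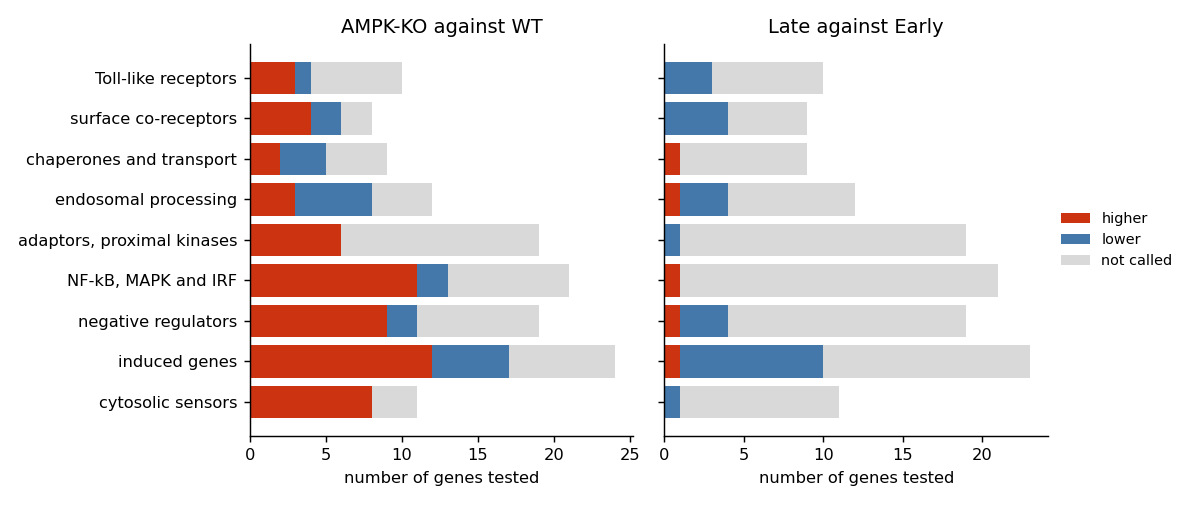
Number of genes tested (x axis) in each list that were called higher, called lower or not called at an adjusted p of 0.05, for AMPK-KO against WT on the left and Late against Early on the right. In AMPK-KO TAMs every list except chaperones and endosomal processing had more higher than lower calls, and with stage the induced genes had 9 lower and 1 higher.

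Sensors of the cytosol, which are not Toll-like receptors, rose for 8 of 11 and fell for 0 in AMPK-KO TAMs. Nod1, a sensor of bacterial peptidoglycan, was at 71.1 ± 0.37 and 113 ± 2.63 CPM (log2 fold change 0.67, adjusted p = 7.4e-06), Sting1, the adaptor of the DNA sensor cGAS, rose by 0.49 (adjusted p = 4.1e-05), and Zbp1, a nucleic acid sensor, by 0.51 (adjusted p = 4.1e-05). With stage 0 rose and 1 of 11 fell, again Zbp1, at -0.41 (adjusted p = 0.0043).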

How the data were processed

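Per the labels and methods, RNA of sorted TAMs was sequenced on an Illumina NovaSeq instrument, and the authors mapped reads with HISAT2 and counted them per gene with featureCounts. The deposited values are raw counts in 1 table per comparison, which the submitters' processing notes place on mm10 (GRCm38), while the methods write GRCh38. Versions, the strand setting and the handling of multiply mapped reads are not given in the sources used here. No rows lacked a gene and no columns were left unused. For Tlr6 the identifier's version differs from GENCODE M21 (GRCm38), so its length was taken from that annotation and no gene coordinates are given.

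Each table was filtered with filterByExpr, scaled by TMM and tested with edgeR 4.0.16 (glmQLFit, glmQLFTest, R 4.3.3) on 3 samples against 3 without covariates. Benjamini-Hochberg adjustment ran over every gene tested in a table, and called genes had an adjusted p under 0.05. CPM used TMM-scaled library sizes of 71019494 to 84470374 counts before scaling, and CPM per kb divided by the merged length of all exons of a gene. Depth was similar in all samples. Principal components used log2 CPM of the 500 most variable genes. Ratios of members were compared with two-sided exact permutation tests. The scripts were tested on simulated data. Alternatives were RLE and upper-quartile factors, library totals alone, DESeq2 1.42.0 (Wald test), no filter, at least 10 counts in every library, a replicate block, and leaving out 1 library at a time.

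The members, gene lists and tests were chosen with earlier results of these data known. Besides the members, Tlr11 and Tlr12, the text names in each comparison and list the 3 higher and 3 lower called genes with the smallest adjusted p, Prkaa1, Lyz2, the Y-linked genes and Xist, and marker lists by their sums and defining genes. Promoters came from a RefSeq table (GRCm38.p6), in which 8 of 10 members were found. The values of 1 marker gene are not reported here.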

Additional observations from a re-analysis of the deposited data

How the results depend on the processing

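The direction of every called member held under all alternatives, and Tlr9 (AMPK-KO against WT) and Tlr5 (Late against Early) were called in each. In AMPK-KO against WT, 3 members were called higher and 1 lower, and with no filter 0 were lower. Leaving out 1 library gave 1 (without WT replicate 3) to 4 higher members and 0 to 1 lower (1 without WT replicate 2 and 0 otherwise). It gave 2414 (without WT replicate 3) to 4039 genes called in all (3693 with every library), 1334 to 2102 of them higher and 1068 to 1937 lower, and 61 to 73 genes of the pathway lists (74). In Late against Early, leaving out 1 library gave 1 (without Late replicate 3) to 5 (without Early replicate 1) lower members and 0 higher. It gave 653 (without Late replicate 2) to 2835 (without Early replicate 1) genes in all (1619), 284 to 1514 higher (759), 369 to 1321 lower (860) and 11 (without Early replicate 2) to 35 pathway genes (26). DESeq2 called 1160 genes higher, and with no filter, which tests more genes, 936 were called, 429 higher and 507 lower. For the other differences the cause was not tested. Signs turned only for members that were not called. In AMPK-KO against WT, leaving out 1 library moved Tlr13 between -0.037 and 0.022 and Tlr4 between -0.13 and 0.0084, and in Late against Early Tlr2 between -0.023 and 0.049, Tlr8 between -0.28 and 0.040 and Tlr9 between -0.015 and 0.15. No mean level moved by more than its SD with library totals alone.

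Among the members, WT replicate 1 was highest for 9 (36.3% of genes) and AMPK-KO replicate 1 for 8 (35.1%). Early replicate 1 was lowest for 10 (36.8%) and Late replicate 1 for 3 (38.7%). Over all genes tested, samples sharing a replicate number did not deviate together (correlations of -0.0039 to 0.042), so the number was not taken as a pairing. With it as a replicate block, 4 members were called higher (Tlr8 added, adjusted p = 0.012) and 1 lower among 3862 genes in AMPK-KO against WT, and 0 higher and 3 lower among 1417 in Late against Early, where 20 pathway genes were called. Of the 57 results on named pathway genes, 13 lost their call in at least 1 alternative and none changed sign. In AMPK-KO against WT these were Arl8b and Map2k3 alone, and the others were in Late against Early. Since the named genes were picked for the smallest adjusted p, their stability does not speak for the lists as a whole. Depth did not limit the members.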

Other observations

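Further cell markers moved between the groups in which the receptors were compared. Of 7 T cell genes, 6 were called higher and 0 lower in AMPK-KO against WT (summed level 100.2 to 113 CPM in WT, 182 to 188 in AMPK-KO), and 3 higher and 0 lower in Late against Early (162 to 174 and 203 to 239 CPM). All 6 fibroblast genes were called higher in AMPK-KO TAMs (569.99 to 617 and 741 to 822 CPM). The 6 endothelial genes summed to 56.7 to 68.8 CPM in WT and 125 to 128 in AMPK-KO (2 higher, 1 lower), and to 98.5 to 100.1 in Early and 86.1 to 91.0 in Late (1 lower). The rise of their sum in AMPK-KO was not shared by the list as a whole, whose median log2 fold change was -0.061. NK cell genes, all higher in AMPK-KO, were lower for 5 of 7 in Late, at 97.1 to 111 CPM in Early and 44.3 to 60.1 in Late. Neutrophil genes summed to 17.9 to 19.8 CPM in WT and 29.3 to 30.5 in AMPK-KO (3 of 5 tested called higher, 0 lower), and to 43.5 to 50.98 in Early and 30.5 to 41.9 in Late (0 of 4 higher, 2 lower). Melanocyte genes were called lower for 6 of 7 in AMPK-KO and for 5 of 7 in Late. The 8 plasmacytoid dendritic cell genes summed to 65.1 to 81.8 CPM in Early and 68.3 to 73.2 in Late, with 0 of 7 tested called (edgeR).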
